A study of Homo sapiens with 16 samples.

Results

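Gene expression in MDA-MB-231 cells carrying a RECK construct was compared with that in the same line carrying an empty vector (EV). MDA-MB-231 is an established human cell line of invasive, triple-negative breast carcinoma. The comparison took 4 of the 16 Affymetrix U133 2.0 arrays of the series, chosen by their sample titles: 2 arrays of the RECK group and 2 of the EV group. The RECK cells had been infected stably with a construct that expresses RECK all the time, and the EV cells had been infected with the vector alone, so that infection is common to both. The labels give neither the promoter of the construct nor whether each population is a clone or a pool. A second comparison of the same kind, 2 RECK arrays against 2 EV arrays of LM24175, a derivative of MDA-MB-231 that metastasises to the lung, served to test whether a response differed between the lines. The remaining 8 arrays (Hs343T and Hs606T cells given siRNA against RECK or scrambled siRNA) entered only through the shared estimate of spread. The sources do not state that replicate arrays stand for separate cultures. The p-values below therefore reflect the spread between these particular arrays, which may be technical, and 2 arrays a group limit the precision of every value.

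RECK is a glycoprotein held at the cell surface by a lipid anchor. It inhibits several matrix metalloproteinases, among them MMP2, MMP9 and MMP14, and its loss is a common feature of invasive tumours. The comparison asks which transcripts differ when an invasive line is made to carry extra RECK. All values are log2 hybridisation signals per probe set, and a difference is RECK minus EV on that scale, so that a positive one means higher in RECK cells. A gene is called higher or lower where its adjusted p (limma over 11963 genes, Benjamini-Hochberg) was under 0.05.

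The 4 arrays correlated with each other at 0.991 to 0.997 across probe sets, and their medians lay between 6.51 and 6.57. They did not sit equally close to their replicates. Between the RECK arrays, 43 of 11963 genes differed by more than 1 log2 unit, and 40 of these were lower on RECK array 1. Between the EV arrays 120 genes differed by that much, and 104 of them were lower on EV array 1. The median absolute difference was 0.0983 between the RECK arrays and 0.170 between the EV arrays. In LM24175 the RECK arrays stood apart in 72 genes and the EV arrays in 2. Across genes, which are not independent replicates, the EV array difference in MDA-MB-231 correlated with the RECK array difference in LM24175 at r = 0.486.

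**Figure D1:**
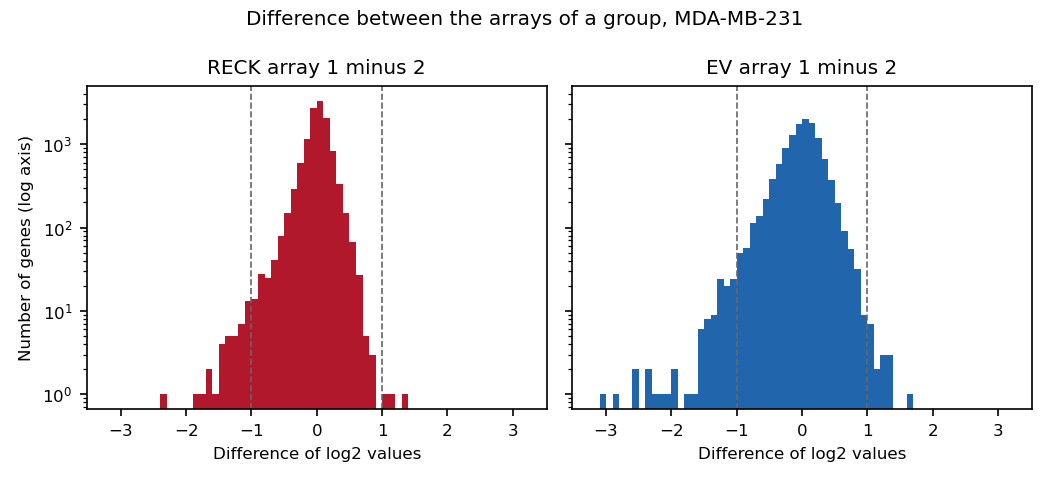
Differences between the 2 arrays of a group in MDA-MB-231, array 1 minus array 2, over 11963 genes (x axis, log2 units), with the number of genes on a log axis. Dashed lines mark 1 log2 unit, beyond which lie 43 genes for the RECK pair (left) and 120 for the EV pair (right), most of them on the low side of array 1.

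Several of the genes that set EV array 1 apart are known as inducible ones. PTGS2, the inducible cyclooxygenase, read 11.71 and 11.58 on the RECK arrays, against 8.55 and 11.14 on EV arrays 1 and 2. PTGES, which makes prostaglandin E2 from the product of that enzyme, read 9.30 and 9.50 on the RECK arrays, against 7.20 and 9.34 on EV arrays 1 and 2. For both genes EV array 2 lay within 0.51 of the RECK mean, while EV array 1 lay over 2 units below it. GDF15, a stress-induced cytokine, read 7.61 and 7.68 on the RECK arrays, against 4.85 and 7.44 on the EV arrays. The others among the 8 lowest on EV array 1 relative to EV array 2 were KLRC3 (-3.04), MMP10 (-2.88), ABCA1 (-2.38), CSGALNACT1 (-2.33) and CXCL11 (-2.27). The 8 genes highest on EV array 1 were EPHA3 (1.68), ID3 (1.39), PDE3B (1.34), MAGEC1 (1.32), SPP1 (1.26), COL1A2 (1.26), H3C2 (1.23) and ATP9B (1.20). None of these 16 genes passed the test between RECK and EV. Because such genes can make a group difference out of a single array, each gene that passed is given below with its value on every array. Some of the genes that did not pass are given by their difference alone.

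The cells carried the markers of the line. The 7 measured mesenchymal markers of MDA-MB-231 summed to 48304 and 48149 linear units on the RECK arrays and 48910 and 49926 on the EV arrays, and none passed the test. The 11 luminal epithelial markers summed to 9830 and 9984 in RECK cells and 10439 and 10367 in EV cells, with 4 of them below the lower quartile of gene levels on all 4 arrays. Markers of other cell types were low. The 7 leukocyte markers summed to 229 and 225 in RECK cells and 219 and 246 in EV cells, the 7 fibroblast markers to 178 and 194 in RECK cells and 188 and 167 in EV cells, and the 5 endothelial markers to 200 and 218 in RECK cells and 194 and 202 in EV cells. None of these passed either.

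RECK transcripts did not differ measurably by these probe sets. The RECK probe set with the highest level read 7.78 and 7.80 on the RECK arrays, against 7.74 and 7.78 on the EV arrays (difference 0.03, SE 0.16, adjusted p = 0.962). A further probe set, open to cross-hybridisation, read 6.10 and 5.99 in RECK cells and 6.07 and 6.08 in EV cells, and the last read 3.44 and 3.35 in RECK cells and 3.60 and 3.50 in EV cells. The groups overlapped in the first and second of these, and in the faint last one the RECK arrays lay just below the EV arrays. None of the 3 passed. In LM24175 the first probe set read 7.39 and 7.76 on the RECK arrays, against 7.96 and 8.04 on the EV arrays. The limma difference there was -0.42 (adjusted p = 0.154), so it was not higher in RECK cells of that line either. The sources do not say which part of the transcript the construct carries. Probes outside that part would not register it, so these values check neither the labels nor the construct.

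In all, 33 of 11963 genes passed (0.276% of those tested). Of these, 27 were higher in RECK cells (0.226%) and 6 were lower (0.0502%). In each of the 33 both RECK arrays lay on the same side of both EV arrays, which was also so for 20.5% of all genes in the higher direction and 17.3% in the lower. The difference was at least 1.5-fold for 25 and at least 2-fold for 6. It follows that all 33 kept their sign when the RECK mean was set against EV array 2 alone, which is no further check. In all 33 the difference between groups exceeded the gap between the EV arrays. That gap enters the spread used in the test, so the choice of genes favours this too. An unadjusted p under 0.05 was reached by 1387 genes. Of the 33, 17 have further probe sets on the array, and 24 of these 27 further probe sets differed in the same direction, several of them by values near 0. Averaging a gene's probe sets kept 22 of the 33 calls, and HOXB7, PIK3CD, ATP2B4 and SC5D were among the 11 lost (adjusted p = 0.208, 0.2502, 0.191 and 0.0851). The calls rested on single arrays: 33 of 33 remained without EV array 2, 21 without RECK array 2, 9 without EV array 1 and 1, PTPRN2, without RECK array 1. They also rested on the spread shared with the other lines, since limma called 0 genes on the 4 MDA-MB-231 arrays alone (685 at an unadjusted p under 0.05) and 0 on the 8 arrays of MDA-MB-231 and LM24175 (930).

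**Figure D2:**
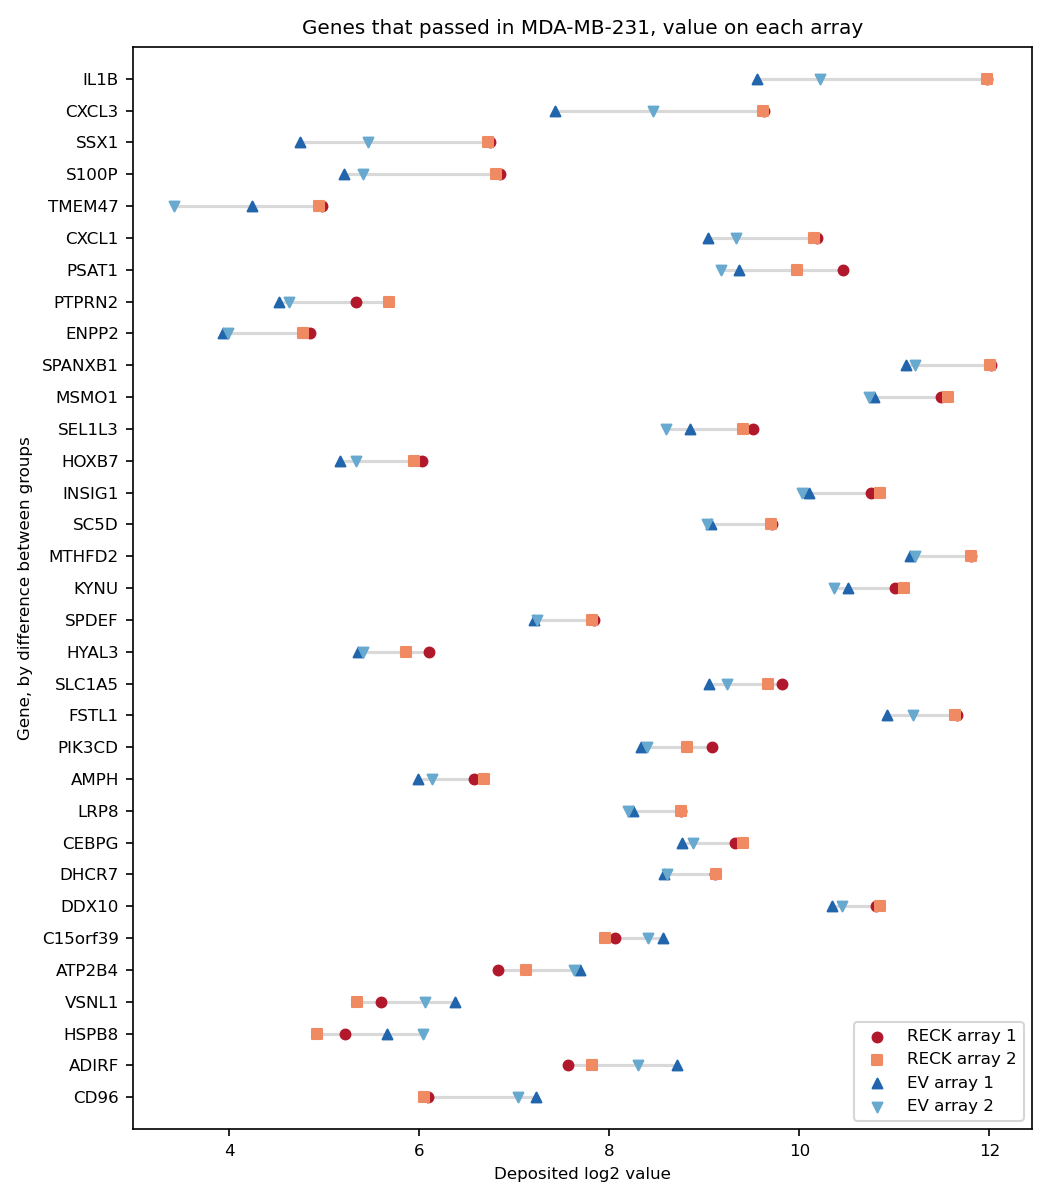
Deposited log2 value (x axis) of each of the 33 genes that passed, on the 2 RECK and the 2 EV arrays of MDA-MB-231, ordered by the difference between groups. The RECK points lie to the right of both EV points in the upper 27 genes and to the left in the lower 6. The EV arrays are farthest apart in CXCL3 and TMEM47, which point in opposite directions.

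Transcripts of the inflammatory cytokine IL1B and of 2 neutrophil-attracting chemokines, CXCL3 and CXCL1, were higher in RECK cells. These genes are classical targets of the transcription factor NF-kB, which inflammatory and stress signals release into the nucleus. CXCL1, CXCL2 and CXCL3 are near copies of each other in a cluster on chromosome 4, so their probe sets may share signal. Their promoters are shown because the 3 genes have the same site for NF-kB at nearly the same place. Each line gives the 250 bases before the gene's start on its own strand, from RefSeq on GRCh38.p14, at chr4:73869143-73869392 on the plus strand for CXCL1, chr4:74038690-74038939 on the minus strand for CXCL3 and chr4:74099196-74099445 on the minus strand for CXCL2. Capitals mark the match to the NF-kB consensus, which reads on both strands with 1 base of offset.
CXCL1: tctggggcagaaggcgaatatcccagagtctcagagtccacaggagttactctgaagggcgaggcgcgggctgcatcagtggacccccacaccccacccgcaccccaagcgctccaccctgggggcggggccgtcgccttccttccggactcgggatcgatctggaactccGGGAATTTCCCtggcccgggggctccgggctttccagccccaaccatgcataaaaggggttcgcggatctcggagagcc
CXCL3: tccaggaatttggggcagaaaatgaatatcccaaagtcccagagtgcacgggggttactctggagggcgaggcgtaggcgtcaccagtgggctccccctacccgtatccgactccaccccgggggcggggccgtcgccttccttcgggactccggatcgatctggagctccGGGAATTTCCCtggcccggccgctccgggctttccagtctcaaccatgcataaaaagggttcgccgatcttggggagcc
CXCL2: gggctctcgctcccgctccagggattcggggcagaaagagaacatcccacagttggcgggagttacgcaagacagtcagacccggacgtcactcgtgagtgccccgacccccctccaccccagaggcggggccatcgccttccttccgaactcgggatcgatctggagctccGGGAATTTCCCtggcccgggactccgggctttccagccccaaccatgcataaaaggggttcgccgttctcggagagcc
The match starts 79 bases before the gene's start in CXCL1 and CXCL3 and 78 bases before it in CXCL2. Position by position, 64.8% of the 250 bases are the same in CXCL1 and CXCL3, 46.8% in CXCL1 and CXCL2 and 44% in CXCL3 and CXCL2. No gaps were allowed, so an offset such as the 1 base in CXCL2 lowers these shares. They therefore do not rank how alike the promoters are. Of the 33 genes that passed, 30 have a promoter in the table, and 4 of them (CXCL1, CXCL3, FSTL1 and PIK3CD) hold this consensus on either strand, against 9.96% of 35116 promoters of this length. IL1B has no match in its window. A motif of sterol-regulated promoters, TCACNCCAC, was found on neither strand in any of the 30, against 0.883% of all promoters, and TGATGNAA, found where ATF4 binds, was in 1 of the 30, S100P, against 3.14% of all. A match is a run of letters and not a site shown to be bound.

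IL1B, which encodes interleukin-1 beta, read 11.98 and 11.97 on the RECK arrays, against 9.55 and 10.22 on the EV arrays. The RECK arrays were nearly equal, while EV array 1 lay 0.67 below EV array 2. The difference was 2.09 (SE 0.29), or 4.25-fold with a 95% interval of 2.74 to 6.61 (adjusted p = 0.0174), and against EV array 2 alone it was 1.75. The other IL1B probe set read 11.57 and 11.51 on the RECK arrays, against 9.29 and 9.94 on the EV arrays. CXCL3 read 9.63 and 9.62 on the RECK arrays, against 7.43 and 8.46 on the EV arrays, a difference of 1.68 (SE 0.26, adjusted p = 0.0291) that was 1.16 against EV array 2. Here the gap between the EV arrays, 1.03, was close to that between EV array 2 and the RECK cells. CXCL1 read 10.19 and 10.15 on the RECK arrays, against 9.04 and 9.33 on the EV arrays, a difference of 0.98 (SE 0.14, adjusted p = 0.0174). All 3 calls were lost without EV array 1 (adjusted p = 0.0752 for IL1B, 0.0533 for CXCL3 and 0.0732 for CXCL1) and without RECK array 1 (0.130, 0.192 and 0.130 in the same order).

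Of 7 measured genes in the neutrophil-attracting CXC family, CXCL3 and CXCL1 were the 2 called higher, against 0.226% of all genes, and none was lower. CXCL2 read 9.81 and 9.72 on the RECK arrays, against 7.60 and 8.86 on the EV arrays (difference 1.54, adjusted p = 0.104). CXCL8, which encodes interleukin-8, read 12.67 and 12.84 on the RECK arrays, against 11.08 and 12.05 on the EV arrays (difference 1.19, adjusted p = 0.132). The groups did not overlap in these genes, but EV array 1 lay 1.25 below EV array 2 for CXCL2 and 0.97 below it for CXCL8. A further CXCL8 probe set differed by 1.63 and passed when every probe set was tested (adjusted p = 0.0248). PPBP, CXCL6 and CXCL5 stayed between 3.01 and 3.65 on the 4 arrays.

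Among 27 measured NF-kB targets, 3 were called higher (IL1B, CXCL3 and CXCL1), against 0.226% of all genes, and none lower. Differences were positive in 22, as they were in 6234 of all 11963 genes. The RECK arrays lay above both EV arrays in 16, which was so for 20.5% of all genes, and the median difference was 0.51, against 0.01 over all genes. That median was 0.63 against EV array 1 and 0.24 against EV array 2. CCL20, a chemokine for dendritic cells and lymphocytes, read 7.43 and 7.58 on the RECK arrays, against 4.45 and 6.16 on the EV arrays (difference 2.20, adjusted p = 0.103). BCL2A1, an inhibitor of cell death, read 7.53 and 7.49 on the RECK arrays, against 5.68 and 6.02 on the EV arrays (difference 1.66, adjusted p = 0.146). TNFAIP3, a feedback inhibitor of the pathway, read 8.17 and 8.09 on the RECK arrays, against 7.50 and 7.75 on the EV arrays (difference 0.51, adjusted p = 0.0641). The inhibitor NFKBIA showed no such pattern, at 9.91 and 10.36 in RECK cells and 10.07 and 10.33 in EV cells. In the interleukin-1 family itself, IL1B was the 1 gene called among 11 measured, against 0.226% of all genes called higher. IL1A read 8.46 and 8.25 on the RECK arrays, against 6.84 and 8.13 on the EV arrays (difference 0.87, adjusted p = 0.318), and IL1RN, the receptor antagonist, differed by -0.08.

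A few genes of cholesterol synthesis, and INSIG1 of its control, were higher in RECK cells, and in these the EV arrays differed little. Cells make cholesterol from acetyl-CoA through lanosterol, and the SREBP transcription factors switch the pathway on when sterols run low. INSIG1, itself a target of SREBP, holds the SREBP complex in the endoplasmic reticulum when sterols are plentiful. Of 25 measured genes of sterol and lipid synthesis (35 were listed), 4 were called higher, against 0.226% of all genes, and none lower. The 4 were MSMO1, INSIG1, SC5D and DHCR7. Differences were positive in 23 of the 25, and in 18 both RECK arrays lay above both EV arrays, against 6234 of 11963 and 20.5% over all genes. The list had been chosen with earlier results of these arrays known, so its counts describe them and are not independent evidence.

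MSMO1, the oxidase that removes methyl groups from lanosterol products, read 11.48 and 11.56 on the RECK arrays, against 10.79 and 10.73 on the EV arrays (difference 0.77, SE 0.09, adjusted p = 0.0174). INSIG1 read 10.75 and 10.85 on the RECK arrays, against 10.10 and 10.03 on the EV arrays (difference 0.73, SE 0.11, adjusted p = 0.0268). In both genes the gap between groups was several times the gap within either. SC5D, a desaturase late in the pathway, read 9.71 and 9.70 on the RECK arrays, against 9.07 and 9.03 on the EV arrays (difference 0.65, SE 0.09, adjusted p = 0.0174). DHCR7, which performs the last step of the pathway to cholesterol, read 9.11 and 9.12 on the RECK arrays, against 8.57 and 8.61 on the EV arrays (difference 0.52, SE 0.09, adjusted p = 0.0362). EV array 1 lay within 0.08 of EV array 2 for all 4. Without EV array 1, MSMO1 and SC5D still passed (adjusted p = 0.0251 and 0.0455), while INSIG1 and DHCR7 did not (0.0618 and 0.130), and without RECK array 1 none of the 4 did, with the smallest adjusted p at 0.0744 for MSMO1. Without RECK array 2, INSIG1 and DHCR7 again missed the threshold (0.0517 and 0.0688).

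The other members gave smaller differences or wider spreads. SCD, which makes monounsaturated fatty acids, read 12.12 and 12.20 on the RECK arrays, against 10.74 and 11.52 on the EV arrays (difference 1.03, adjusted p = 0.218). LPIN1, a phosphatidate phosphatase, read 10.82 and 10.68 on the RECK arrays, against 9.93 and 10.28 on the EV arrays (difference 0.64, adjusted p = 0.0748). HMGCS1, which makes the precursor HMG-CoA, read 8.06 and 8.21 on the RECK arrays, against 7.61 on both EV arrays (difference 0.53, adjusted p = 0.121). Within the pathway, the differences of LSS (0.37, adjusted p = 0.0641) and IDI1 (0.39, adjusted p = 0.0836) lay nearest to the threshold. MVK, PMVK, MVD and HSD17B7 lay between -0.08 and 0.02. The list's median was 0.34, against 0.01 over all genes. It was 0.38 against EV array 1 and 0.28 against EV array 2. Of 10 measured genes of sterol regulation and uptake, INSIG1 was the 1 called, against 0.226% of all genes called higher. The median of those 10 was 0.48 against EV array 1 and 0.0021 against EV array 2. Among the 7 measured targets of the sterol sensor LXR none passed, and ABCA1, a cholesterol exporter, read 6.93 and 6.66 on the RECK arrays, between the EV readings of 5.17 and 7.55.

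**Figure D3:**
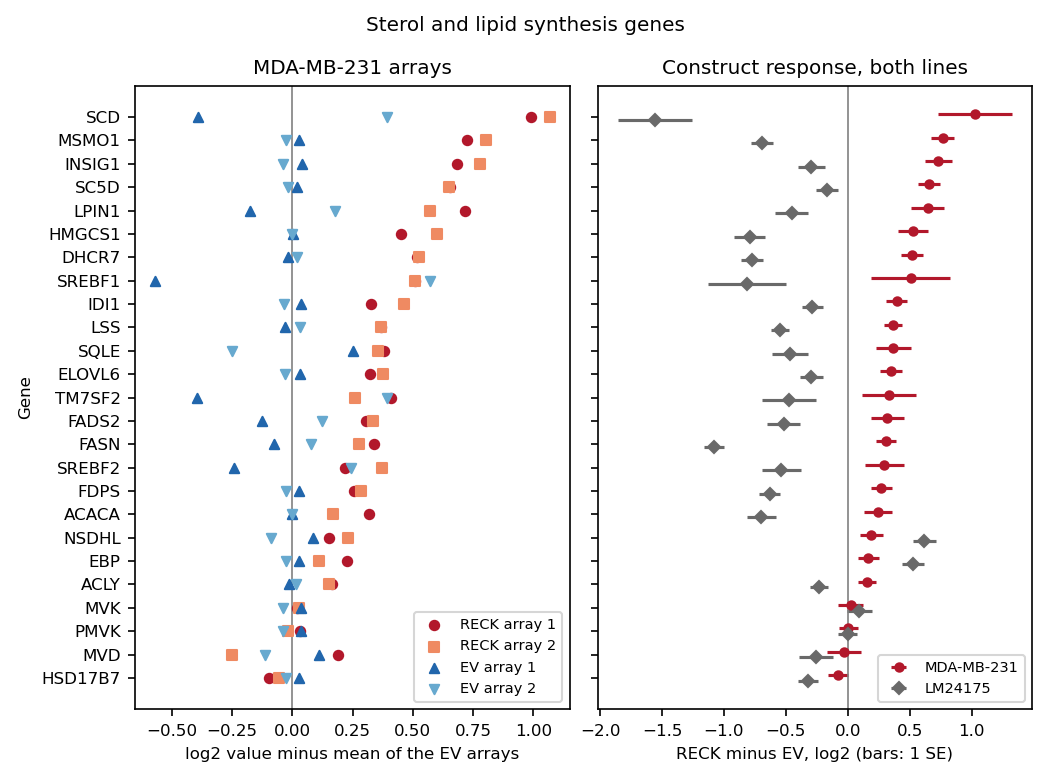
Left: the 25 measured genes of sterol and lipid synthesis in MDA-MB-231, each array's log2 value minus the mean of the 2 EV arrays. Right: the RECK minus EV difference in MDA-MB-231 and in LM24175 (log2, bars 1 SE). In MSMO1, INSIG1, SC5D and DHCR7 the EV points nearly coincide and both RECK points lie to their right, and in LM24175 most of the 25 genes lie left of 0.

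A further group of genes belonged to serine and folate metabolism and amino acid supply, which the transcription factor ATF4 controls when cells lack amino acids or carry unfolded protein. Of 37 measured ATF4 and unfolded-protein-response genes, 4 were called higher, against 0.226% of all genes, and none lower. PSAT1, an enzyme of serine synthesis, read 10.46 and 9.97 on the RECK arrays, against 9.37 and 9.17 on the EV arrays (difference 0.95, SE 0.16, adjusted p = 0.0362). It was the called gene in which the RECK arrays differed most from each other, by 0.49. MTHFD2, a mitochondrial folate enzyme, read 11.81 on both RECK arrays, against 11.16 and 11.22 on the EV arrays (difference 0.62, SE 0.10, adjusted p = 0.0362). SLC1A5, a glutamine transporter, read 9.82 and 9.66 on the RECK arrays, against 9.04 and 9.24 on the EV arrays (difference 0.60, SE 0.10, adjusted p = 0.0383). CEBPG, a partner of ATF4 on DNA, read 9.32 and 9.41 on the RECK arrays, against 8.77 and 8.88 on the EV arrays (difference 0.54, SE 0.09, adjusted p = 0.0312). The RECK arrays were the higher pair in each of the 4. Without EV array 1 none of the 4 passed (adjusted p 0.0732 for PSAT1, 0.132 for MTHFD2, 0.166 for SLC1A5 and 0.115 for CEBPG), nor without RECK array 1 (0.288, 0.278, 0.350 and 0.135 in the same order). Without RECK array 2, MTHFD2 and CEBPG were lost as well (0.0636 and 0.0658).

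Across the 37 genes 35 differences were positive, and in 31 both RECK arrays lay above both EV arrays, for which the share over all genes was 20.5%. Several genes with large differences did not pass, among them TRIB3 (1.19) and DDIT4 (1.11), both induced by stress. CHAC1, which degrades glutathione, read 8.41 and 8.21 on the RECK arrays, against 6.59 and 7.55 on the EV arrays (difference 1.24, adjusted p = 0.149). ASNS, asparagine synthetase, read 11.90 and 11.86 on the RECK arrays, against 10.53 and 11.02 on the EV arrays (difference 1.10, adjusted p = 0.0625). PHGDH, the first enzyme of serine synthesis, read 9.25 and 9.17 on the RECK arrays, against 8.34 and 8.58 on the EV arrays (difference 0.75, adjusted p = 0.0704). In each the EV arrays were apart from each other in the same direction, with EV array 1 the lowest. The list's median was 0.54, and it was 0.68 against EV array 1 and 0.32 against EV array 2. HSPA5, the main chaperone of the endoplasmic reticulum, read 13.46 and 13.47 on the RECK arrays, and the EV arrays lay on either side of them (difference 0.18, adjusted p = 0.642).

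Several other genes that passed are known from tumours rather than from a single pathway. SSX1, a cancer-testis gene, read 6.74 and 6.72 on the RECK arrays, against 4.75 and 5.46 on the EV arrays (difference 1.62, SE 0.22, adjusted p = 0.0174). SPANXB1, of the same class and with close copies on the X chromosome that its probe set may not tell apart, read 12.02 and 12.01 on the RECK arrays, against 11.12 and 11.21 on the EV arrays (difference 0.85, SE 0.13, adjusted p = 0.0276). These were the 2 called among 15 measured cancer-testis genes, against 0.226% of all genes called higher. Of the 15, 11 lay below the lower quartile of levels on all 4 arrays. S100P, a calcium-binding protein linked to metastasis, read 6.85 and 6.80 on the RECK arrays, against 5.21 and 5.41 on the EV arrays (difference 1.51, SE 0.20, adjusted p = 0.0174). It was the 1 gene called among 18 measured S100 genes, against 0.226% of all genes called higher. The S100P difference was 1.41 against EV array 2 alone. S100A4 read 11.03 and 11.20 on the RECK arrays, against 11.34 and 12.56 on the EV arrays, and did not pass (adjusted p = 0.275). ENPP2, or autotaxin, the secreted enzyme that makes lysophosphatidic acid, read 4.85 and 4.77 on the RECK arrays, against 3.93 and 3.99 on the EV arrays (difference 0.85, SE 0.13, adjusted p = 0.0236). All 4 ENPP2 readings lay below the lower quartile of gene levels, which ran from 4.86 to 4.91 over the 4 arrays, so the gene was faint in both groups. Its other probe set read 4.46 and 4.36 on the RECK arrays, against 4.66 and 4.02 on the EV arrays, so that the groups overlapped, and with both probe sets averaged ENPP2 did not pass (difference 0.46, adjusted p = 0.208). Without RECK array 1 none of these 4 passed (adjusted p from 0.130 to 0.192). Without EV array 1, SSX1 kept its call (0.0489), and S100P, SPANXB1 and ENPP2 did not (0.0628, 0.111 and 0.0820).

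Among the remaining genes higher in RECK cells, TMEM47, a membrane protein of cell junctions, had the largest difference. It read 4.98 and 4.95 on the RECK arrays, against 4.23 and 3.42 on the EV arrays (difference 1.14, SE 0.19, adjusted p = 0.0362). The EV readings were faint and 0.81 apart, with EV array 2 the lowest. PTPRN2, a protein of secretory vesicles, read 5.33 and 5.68 on the RECK arrays, against 4.52 and 4.63 on the EV arrays (difference 0.93, SE 0.12, adjusted p = 0.0174). Both EV readings of PTPRN2 lay below the lower quartile of gene levels. Of its other 2 probe sets 1 differed in the same direction, and with all 3 averaged PTPRN2 did not pass (difference 0.57, adjusted p = 0.0561). KYNU, kynureninase of tryptophan breakdown, read 11.001 and 11.103 on the RECK arrays, against 10.514 and 10.359 on the EV arrays (difference 0.62, SE 0.10, adjusted p = 0.0276). Its 4 probe sets differed by 0.60 to 0.76. HOXB7, a homeobox transcription factor, read 6.03 and 5.94 on the RECK arrays, against 5.17 and 5.33 on the EV arrays (difference 0.73, SE 0.10, adjusted p = 0.0175). SPDEF, an epithelial ETS factor, read 7.83 and 7.82 on the RECK arrays, against 7.20 and 7.23 on the EV arrays (difference 0.61, SE 0.08, adjusted p = 0.0174). The other 4 SPDEF probe sets differed by only -0.18 to 0.11, and all 5 are open to cross-hybridisation, so the call rests on a single probe set. Without EV array 1, TMEM47, PTPRN2 and KYNU passed (adjusted p = 3.46e-04, 0.0478 and 0.0405), and HOXB7 and SPDEF did not (0.0732 and 0.0547). Without RECK array 1, PTPRN2 was the 1 gene of the 5 to pass (0.0166), and without RECK array 2, TMEM47 and KYNU did not (0.0602 and 0.0587).

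PIK3CD, a catalytic subunit of phosphoinositide 3-kinase, read 9.08 and 8.81 on the RECK arrays, against 8.33 and 8.39 on the EV arrays (difference 0.58). FSTL1, a secreted glycoprotein, read 11.66 and 11.63 on the RECK arrays, against 10.93 and 11.20 on the EV arrays (difference 0.58). LRP8, a lipoprotein and reelin receptor, read 8.76 on both RECK arrays, against 8.24 and 8.19 on the EV arrays (difference 0.54). The EV arrays were closest to each other in LRP8 and farthest apart in FSTL1. The last 4 genes of this kind were SEL1L3, HYAL3, a hyaluronidase, AMPH, amphiphysin of endocytosis, and DDX10, an RNA helicase, with differences of 0.74, 0.61, 0.57 and 0.43. SEL1L3 read 9.51 and 9.41 on the RECK arrays, against 8.85 and 8.60 on the EV arrays. HYAL3 read 6.10 and 5.86 on the RECK arrays, against 5.35 and 5.40 on the EV arrays. AMPH read 6.58 and 6.68 on the RECK arrays, against 5.98 and 6.13 on the EV arrays. DDX10 read 10.81 and 10.85 on the RECK arrays, against 10.34 and 10.45 on the EV arrays. Adjusted p-values of these 7 genes ran from 0.0236 for LRP8 to 0.0420 for HYAL3. Of them LRP8 and SEL1L3 passed without EV array 1 (adjusted p = 0.0489 and 0.0478), and none passed without RECK array 1. FSTL1, AMPH and DDX10 also missed the threshold without RECK array 2 (0.0587, 0.0958 and 0.0829).

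The 6 genes lower in RECK cells included 2 of calcium handling. CD96, a receptor better known from lymphocytes, read 6.09 and 6.04 on the RECK arrays, against 7.23 and 7.04 on the EV arrays (difference -1.07, SE 0.14, adjusted p = 0.0174). Leukocyte markers were low in both groups, as given above, with 3 of 7 below the lower quartile on all 4 arrays. ADIRF, a gene named for fat cell formation, read 7.57 and 7.82 on the RECK arrays, against 8.71 and 8.31 on the EV arrays (difference -0.82, SE 0.14, adjusted p = 0.0362). HSPB8, a small heat shock protein, read 5.22 and 4.93 on the RECK arrays, against 5.66 and 6.04 on the EV arrays (difference -0.78, SE 0.14, adjusted p = 0.0387). It was the 1 gene called among 15 measured small heat shock proteins and chaperones, against 0.0502% of all genes called lower. VSNL1, a neuronal calcium sensor, read 5.59 and 5.34 on the RECK arrays, against 6.38 and 6.06 on the EV arrays (difference -0.75, SE 0.13, adjusted p = 0.0387). ATP2B4, a calcium pump of the plasma membrane, read 6.83 and 7.13 on the RECK arrays, against 7.69 and 7.63 on the EV arrays (difference -0.69, SE 0.11, adjusted p = 0.0323). Both belong to the 12 measured genes of calcium handling, where no other passed, against 0.0502% of all genes called lower. C15orf39 read 8.06 and 7.96 on the RECK arrays, against 8.56 and 8.41 on the EV arrays (difference -0.48, SE 0.08, adjusted p = 0.0398). With a gene's probe sets averaged, VSNL1, ATP2B4 and C15orf39 did not pass (adjusted p = 0.0905, 0.191 and 0.271). HSPB8 was the 1 gene of the 6 to pass without EV array 1 (adjusted p = 0.0255), CD96 lay just outside at 0.0547, and none of the 6 passed without RECK array 1. HSPB8, VSNL1 and C15orf39 missed the threshold without RECK array 2 (0.106, 0.105 and 0.105).

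The genes through which RECK is best known did not pass. Of 31 measured metalloproteinases, ADAM family members and their inhibitors, none was called. MMP3, stromelysin-1, read 8.81 and 8.87 on the RECK arrays, against 6.74 and 7.98 on the EV arrays (difference 1.48, adjusted p = 0.0530). MMP1, interstitial collagenase, read 13.75 and 13.80 on the RECK arrays, against 13.13 and 13.54 on the EV arrays (difference 0.44, adjusted p = 0.267). Of the RECK-inhibited proteases, MMP2 differed by -0.25, MMP9 by 0.28 and MMP14 by 0.11, with adjusted p-values from 0.620 to 0.767. PLAU, urokinase, read 12.41 and 12.36 on the RECK arrays, and the EV arrays lay on either side of them, 0.99 apart (difference -0.11, adjusted p = 0.904). Transcript levels say nothing of protease activity, which is what RECK inhibits.

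STAT3 signalling and angiogenesis were examined next. STAT3 read 9.91 and 10.09 on the RECK arrays, against 9.92 and 10.12 on the EV arrays (difference -0.02), and IL6 read 7.49 and 7.68 on the RECK arrays, against 6.39 and 7.53 on the EV arrays (difference 0.62, adjusted p = 0.453, and 0.0228 without EV array 2). IL6 was thus close to EV array 2 and over 1 unit above EV array 1. No STAT3 target of 33 measured was called, and the list's median was 0.19 against both EV arrays, 0.26 against EV array 1 and -0.04 against EV array 2. Among 48 pro-angiogenic factors 4 were called higher, against 0.226% of all genes, and none lower, with a median of 0.09. IL1B, CXCL3 and CXCL1 were already counted among the NF-kB targets. The last was ENPP2, which was faint and did not pass with its probe sets averaged. VEGFA read 12.45 and 12.46 on the RECK arrays, again inside the EV readings of 11.78 and 12.55. None of the 16 measured anti-angiogenic genes was called.

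In the larger lists the median depended on the EV array chosen. Of 57 measured cell cycle genes none was called, 51 differences were negative, and the median was -0.19 against both EV arrays, -0.38 against EV array 1 and 0.01 against EV array 2. TOP2A, a DNA topoisomerase of dividing cells, read 10.92 and 12.07 on the RECK arrays, against 12.73 and 12.29 on the EV arrays, so that its RECK arrays also stood apart. MKI67, the proliferation marker Ki-67, read 9.94 and 9.81 on the RECK arrays, against 10.69 and 9.90 on the EV arrays. The 42 matrix and integrin genes had a median of 0.14 against both EV arrays, and the value was 0.34 against EV array 1 and -0.05 against EV array 2. For 26 immediate early genes the corresponding medians were 0.16, 0.31 and -0.06, and for 36 interferon-stimulated genes 0.03, 0.11 and -0.15. No member of these 4 lists was called. The medians of the sterol, NF-kB, ATF4 and CXC chemokine lists kept their sign against either EV array. So did that of the pro-angiogenic list, at 0.16 against EV array 1 and 0.06 against EV array 2. These lists hold genes that passed and were chosen with earlier results of these arrays known, so this is no further check.

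**Figure D4:**
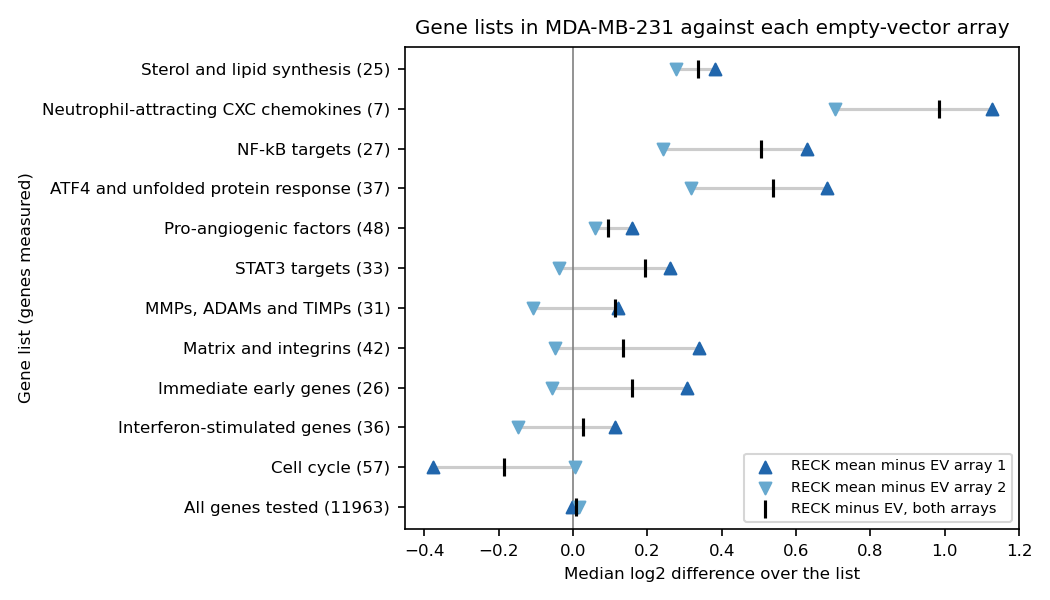
Median log2 difference over each gene list (x axis; the number of genes measured in brackets) with the RECK mean set against EV array 1, EV array 2 or both. The sterol list moves least among the 4 uppermost lists, from 0.38 to 0.28, while the cell cycle list goes to 0.01 and the STAT3, metalloproteinase, matrix, immediate early and interferon lists fall below 0 against EV array 2. Over all genes the 3 medians lie between -0.0016 and 0.0148.

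Leaving out the 2 arrays that deviated together, EV array 1 of MDA-MB-231 and RECK array 1 of LM24175, gave more calls. A total of 77 genes were then higher (0.644%) and 40 lower (0.334%), and 24 of the 33 genes were among them. Without EV array 1 alone, 15 genes were higher (0.125%) and 11 lower (0.092%). With a single EV array left, its spread is assumed to be that of the other groups. Called without both arrays were 7 NF-kB targets, 7 ATF4 and unfolded-protein-response genes, 6 genes of sterol and lipid synthesis and 3 CXC chemokines, each of them higher, 1 matrix or integrin gene that was higher and 4 that were lower, and no cell cycle gene. Without EV array 1 alone, 2 genes of sterol and lipid synthesis and 1 lower matrix gene were called, and none of the NF-kB, ATF4 or CXC chemokine lists. The differences themselves are the same in both fits, since RECK array 1 of LM24175 enters them only through the spread. Of the genes called in addition, BCL2A1 (difference 1.49), CCL20 (1.35) and CXCL2 (0.91) are NF-kB targets, with adjusted p-values of 1.70e-04, 0.00254 and 0.00583, against 0.424, 0.365 and 0.359 without EV array 1 alone. SPP1, which encodes osteopontin, read 7.91 and 7.95 on the RECK arrays, against 7.80 on EV array 1, the array left out, and 6.53 on EV array 2 (difference 1.40). ASS1 (1.24), SLCO4C1 (1.14), SERPING1 (0.98), G0S2 (0.96), TNIP3 (0.95) and C3 (0.93) completed the 10 largest rises. S100A4 read 11.03 and 11.20 on the RECK arrays, against 11.34 on the EV array left out and 12.56 on the other, a difference of -1.44 (adjusted p = 1.70e-04). The other 9 largest falls were those of KLRC3 (-1.59), LYZ (-1.41), SCG2 (-1.31), S100A2 (-1.04), ITGB4 (-1.01), GLI2 (-0.92), SOX4 (-0.92), APOBEC3G (-0.92) and HSD17B8 (-0.90). For SPP1, SERPING1, G0S2, S100A4, LYZ, S100A2, ITGB4, SOX4 and HSD17B8 the EV array left out read close to the RECK arrays, so these calls hold only against EV array 2. For KLRC3 and APOBEC3G it lay below both RECK arrays, at 4.34 and 9.27, so that the direction is the opposite against it.

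The response was set against that of LM24175 to see which parts of it differed between the lines. In LM24175, RECK minus EV gave 411 genes higher (3.44%) and 391 lower (3.27%). The difference of the 2 responses passed for 435 genes (3.64%), of which 238 lay higher in MDA-MB-231 (1.99%) and 197 lower (1.65%). Among the 33 genes called in MDA-MB-231 it passed for 19. These 33 were chosen by the MDA-MB-231 difference, which is also a part of the difference of responses. The choice itself favours this count, so it is not independent evidence that the lines differ. Of the 33, 4 passed in LM24175 in the same direction, 5 passed in the opposite direction and 24 did not pass there.

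The genes that passed in both lines in 1 direction were SSX1, PTPRN2, ENPP2 and CD96. SSX1 was higher by 1.62 in MDA-MB-231 and by 1.25 in LM24175, and CD96 differed by -1.07 in MDA-MB-231 and by -1.23 in LM24175. PTPRN2 was higher by 0.93 in MDA-MB-231, where its EV readings were faint, and by 0.53 in LM24175. Its LM24175 readings were far higher, at 9.85 and 10.06 on the RECK arrays, against 9.44 and 9.42 on the EV arrays. For these 3 the difference of responses did not pass (adjusted p = 0.570, 0.727 and 0.210 for SSX1, CD96 and PTPRN2). ENPP2 was higher by 0.85 in MDA-MB-231 and by 1.66 in LM24175, and the responses differed by -0.81 (SE 0.18, adjusted p = 0.0316). In LM24175 its level was 7.22 and 7.67 on the RECK arrays, against 5.85 and 5.71 on the EV arrays, above the lower quartile that it did not reach in MDA-MB-231. IL1B was higher by 2.09 in MDA-MB-231 and by 0.64 in LM24175, and this difference of 1.45 did not pass (SE 0.41, adjusted p = 0.0767). Its LM24175 readings were 11.88 and 13.07 on the RECK arrays, against 11.80 and 11.87 on the EV arrays, above the EV level of MDA-MB-231.

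The sterol and lipid list lay on opposite sides of 0 in the lines. The list's median was 0.34 in MDA-MB-231 and -0.47 in LM24175, where 2 of 25 genes were called higher and 10 lower. The difference of responses passed for 15 of the 25, each time higher in MDA-MB-231. MSMO1 differed by 0.77 in MDA-MB-231 and by -0.70 in LM24175, with LM24175 readings of 11.16 and 11.41 on the RECK arrays, against 12.03 and 11.93 on the EV arrays. The difference of responses was 1.46 (SE 0.13, adjusted p = 6.30e-04). DHCR7 differed by 0.52 in MDA-MB-231 and by -0.77 in LM24175, with LM24175 readings of 8.65 and 8.60 on the RECK arrays, against 9.45 and 9.35 on the EV arrays (difference of responses 1.30, SE 0.13, adjusted p = 0.00121). For MSMO1 the EV arrays of MDA-MB-231 were the lowest and the EV arrays of LM24175 the highest of the 4 groups, with the RECK arrays of both lines between. FASN, fatty acid synthase, differed by 0.31 in MDA-MB-231, which did not pass, and by -1.08 in LM24175 (difference of responses 1.39, adjusted p = 6.30e-04).

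CXCL3 and CXCL1 differed between the lines as well. CXCL3 was higher by 1.68 in MDA-MB-231 and differed by -0.48 in LM24175, which did not pass there (difference of responses 2.16, SE 0.37, adjusted p = 0.00991). In LM24175 it read 8.30 and 8.95 on the RECK arrays, against 9.03 and 9.19 on the EV arrays. The 3 other genes that passed in opposite directions, HOXB7, KYNU and LRP8, were higher in MDA-MB-231 by 0.73, 0.62 and 0.54 and differed in LM24175 by -0.42, -0.43 and -0.39. The ATF4 list had a median of 0.54 in MDA-MB-231 and 0.05 in LM24175, and 3 of its 37 genes passed the difference of responses. The NF-kB list had medians of 0.51 and -0.13 in the same order of lines, with 4 of 27 genes past that test. These differences of responses include EV array 1 of MDA-MB-231 and RECK array 1 of LM24175, which deviate together. Leaving out each array in turn gave from 123 to 1411 genes, and leaving out both deviating arrays together gave 423.

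**Figure D5:**
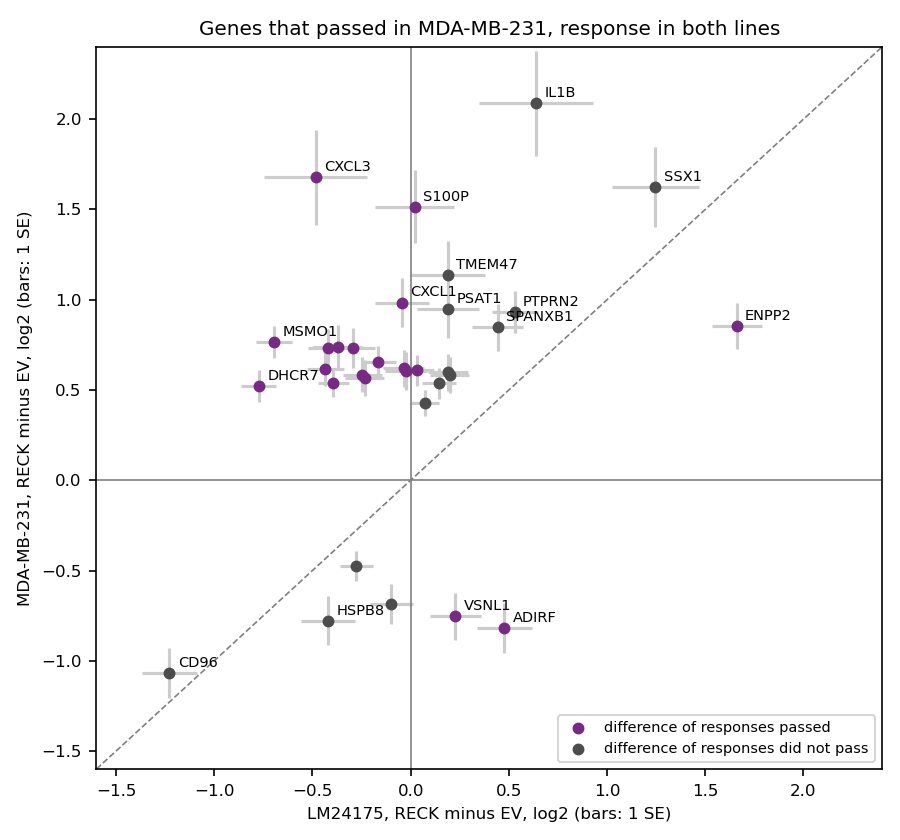
RECK minus EV difference of the 33 genes that passed in MDA-MB-231 (y axis) against the difference of the same gene in LM24175 (x axis; log2, bars 1 SE). Purple points mark the 19 genes whose difference of responses passed. Points in the upper left, such as CXCL3, MSMO1 and DHCR7, are higher in RECK cells of MDA-MB-231 and lie below 0 in LM24175, while SSX1, ENPP2 and CD96 lie on the same side in both.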

How the data were processed

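Expression was measured on Affymetrix U133 2.0 arrays from total RNA (RNeasy kit), per the labels' protocols. The deposited table holds log2 values for 22277 probe sets on each array, which the authors made from scanner files in Partek, per the series' design text. Neither the method of summary and scaling nor the software version is given in the sources used here, and no value was rescaled. The log base was read from the range of the values.

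Of the 22277 probe sets, 19064 that were not among the 62 controls had exactly 1 gene symbol in the platform annotation. Each of the resulting 11963 genes was read from its brightest probe set, by the mean of all 16 arrays. The gene identifiers of 19052 probe sets matched the RefSeq gene table. Listed genes with no such probe set were left out.

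The means of the 8 groups were fitted over 16 arrays in limma 3.58.1 (R 4.3.3). The fit had 8 residual degrees of freedom and a prior of 3.72, and its median residual SD was 0.129. Contrasts were RECK minus EV and the difference of this response from that of LM24175. Tests were 2-sided, with Benjamini-Hochberg adjustment over 11963 genes and a threshold of 0.05. Intervals are 95% intervals of that fit. Lists are given as counts and medians, with no test of a list. The procedure was run on simulated data before use. That simulation used independent noise and no deviating array, so it does not cover arrays that deviate together.

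Named were all genes that passed, RECK, 10 genes of STAT3 signalling and invasion, the called members or up to 4 largest differences of each list described, the 8 genes highest and lowest on EV array 1 against EV array 2, and up to 10 genes per direction called only without both deviating arrays. Members of the lists named beyond this rule (such as NFKBIA, HSPA5 or IL1RN) were chosen after their values were seen. The comparison and lists were chosen with earlier results of these data known. Promoters (RefSeq, GRCh38.p14) were searched on both strands for the NF-kB consensus, TCACNCCAC and TGATGNAA. Python 3.11.15 with pandas 2.3.3, numpy 2.4.6 and matplotlib 3.10.9 made the tables and figures.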

Additional observations from a re-analysis of the deposited data

Results flagged for a closer look

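The response to the construct differed between MDA-MB-231 and LM24175 for 20 genes, which are 19 of the 33 called in MDA-MB-231 and MMP1, by the difference of responses in the limma fit over 16 arrays (response in MDA-MB-231 minus response in LM24175, log2, 2 arrays a group). Among genes called higher in MDA-MB-231 the difference was 2.16 for CXCL3 (adjusted p = 0.00991), 1.03 for CXCL1 (0.0155) and 1.495 for S100P (0.0167), whose response in LM24175 was 0.02. For sterol genes it was 1.46 for MSMO1 (6.30e-04), 1.30 for DHCR7 (0.00121), 1.03 for INSIG1 (0.00631) and 0.82 for SC5D (0.00634), and for LRP8, a lipoprotein receptor, it was 0.93 (0.00303). MTHFD2, the folate enzyme, differed by 0.65 (0.0330). Other genes with a higher response in MDA-MB-231 were HOXB7 (1.15, adjusted p = 0.00303), SEL1L3 (1.11, 0.00748), KYNU (1.05, 0.00303), FSTL1 (0.83, 0.00932), AMPH (0.80, 0.0101), HYAL3 (0.63, 0.0419) and SPDEF (0.58, 0.0239). The response was lower in MDA-MB-231 for ENPP2 (-0.81, adjusted p = 0.0316), VSNL1 (-0.98, 0.0150), ADIRF (-1.29, 0.00617) and MMP1 (-1.33, 0.00617). MMP1 differed by 0.44 in MDA-MB-231, which did not pass, and was higher by 1.77 in LM24175. Each of these comparisons contains both arrays that deviate together, and their part was not tested gene by gene here. The 33 genes were chosen by the MDA-MB-231 difference, which each comparison also contains, so 19 of 33 is not independent evidence.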

How the results depend on the processing

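The main analysis called 33 genes between RECK and EV cells. Quantile normalization gave 38, centring on array medians 31, averaging a gene's probe sets 24 and a 1.5-fold minimum 25. The count moved by over 1.5 times with every probe set tested alone (53), without probe sets named x_at, s_at or a_at (21), without the genes in the lowest 0.25 of level (59) and with trend and robust estimation (81). With the 4 MDA-MB-231 arrays alone limma called 0 genes (685 at an unadjusted p under 0.05), and with the 8 arrays of both invasive lines also 0 (930). Leaving out 1 array gave 3 to 681 genes, with 3 without RECK array 1, 26 without EV array 1, 119 without RECK array 2 and 681 without EV array 2, and leaving out both deviating arrays gave 117. Higher and lower calls were 30 and 89 without RECK array 2, against 27 and 6 with all arrays. None of the 33 changed sign in the fits that give a gene 1 value, where it had one, and with every probe set tested alone PTPRN2, HOXB7 and SPDEF each had 1 probe set of the opposite sign. The count of genes whose responses differed between the lines was 435, and it was 228 without x_at, s_at and a_at probe sets, 671 with trend and robust estimation, 21 with 8 arrays and 123 to 1411 with 1 array left out. It was 423 without both deviating arrays. The cause of these shifts was not tested. Of genes that did not pass, IL6 (1.19, adjusted p = 0.0228), CXCL8 (1.67, 0.0129) and MMP1 (0.64, 0.0318) passed without EV array 2. Signs of such genes turned for RECK (-0.0096 with centring, -0.0526 with averaged probe sets) and IL6ST (-0.343 with averaged probe sets). They also turned with 1 array left out, where the difference ran from -0.0931 to 0.676 for VEGFA, from -0.108 to 0.3335 for MMP14, from -0.607 to 0.385 for PLAU and from -0.1155 to 0.0821 for STAT3, in each case from the value without EV array 1 to that without EV array 2. Replicate numbers are shared by the groups. In each of the 4 lines the groups' array 1 minus array 2 differences were nearly uncorrelated across genes (r from -0.0505 to 0.0106). With 2 arrays a group these values cannot tell whether samples of 1 number were prepared together. With replicate number as a block within each line, 1 gene was called, and 148 for the difference of responses. No detection calls or scanner files were used, so signal over background could not be judged beyond the lower quartile of levels.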

Other observations

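Most other gene groups showed few differences between RECK and EV cells of MDA-MB-231. Metallothioneins, which bind zinc and copper, had 8 genes measured and none called, with a median difference of 0.12 in MDA-MB-231 and -0.31 in LM24175, where 3 were lower. MT1E, for example, read 13.11 and 13.08 on the RECK arrays, against 13.02 and 12.81 on the EV arrays, and its responses differed by 0.75 between the lines (adjusted p = 0.0196). Hypoxia genes (28 measured, median 0.08), NRF2 targets and aldo-keto reductases (18, median 0.11), genes of epithelial-mesenchymal transition (21, median 0.04), the plasminogen system (9, median -0.07) and RECK's known partners (18, median -0.02) had no called member. Ribosomal protein genes, a group with little spread, had 22 members measured, none called, and a median of -1.0e-04. Of 19 genes of a lung metastasis signature, CXCL1 and KYNU were called higher and ADIRF lower. Over all genes, 0.226% were called higher and 0.0502% lower.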
